A study of Ursus arctos with 5 samples.

Results

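Cytokine, interferon and NF-kB genes were examined in the gastrocnemius (calf) muscle of grizzly bears sampled in February, during hibernation, and in October, when the animals were active. The members were transcripts whose gene name belongs to the interleukin, TNF, IRF, STAT, JAK, NF-kB, IKBK, TRAF, chemokine, Toll-like receptor, interferon, OAS, HLA, B2M, TAP, NLR or CD families, apart from CD36 and CD63, and within these families the members were taken by name alone. They came to 74 transcripts of 47 genes, out of 9093 transcripts of 4873 genes that carry a gene name and 26614 transcripts in all. No chemokine, chemokine receptor, Toll-like receptor, NLR gene or interferon ligand is among the 47, and of the interleukin families only receptor chains are. The values are RPKM, reads per kilobase of transcript scaled to the aligned reads of the library, so that levels of different genes can be set side by side. Every transcript in the table is at 1 RPKM or more in each library, and a gene below that level in any library was not analysed here.

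RNA came from 2 bears, Tia and Star, taken here as a subadult and an adult from the column order of the study's transcript list and not from the labels, each biopsied under anaesthesia in both states, which gives 4 single-end libraries, 2 hibernating and 2 active. The bears were captive animals of no stated genotype or experimental treatment, kept in unheated dens over winter. Feeding stopped in early November, so they were fed in October and unfed in February. By the paper, the injected anaesthetic dose per body weight was lower in hibernation. State, season, feeding and anaesthetic dose thus cannot be told apart. The labels give 1 single-end sample for each state that holds both animals and call every sample adult, whereas the table has a column for each bear and state. With 1 animal of each age class, age and individual cannot be told apart, and each state and bear has a single library with no replicate of its own. The low values of short transcripts were whole multiples of 1 read for 96.1% to 97.4% of 326 to 439 values per library, within 0.1 read, and corresponded to 50.0 M (mega) aligned reads in hibernating Tia, 52.5 M in active Tia, 54.1 M in hibernating Star and 44.6 M in active Star. Of 12 skeletal muscle markers, 5 were listed, and their summed level was 10132 RPKM in hibernating Tia, 12644 in active Tia, 15041 in hibernating Star and 15817 in active Star.

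Interferons bind receptors that activate JAK kinases and STAT transcription factors, which switch on IRF1 and a large set of antiviral and antigen presentation genes. NF-kB, a dimer of proteins such as RELA and the product of NFKB1, is held in the cytoplasm by inhibitors until the IKK kinase (IKBKB with its regulatory partner IKBKG) is activated by TNF family receptors and other inputs. In skeletal muscle both routes are known from inflammation and wasting, and their members are expressed by muscle fibres as well as by the resident immune and endothelial cells of a biopsy. In such bulk samples, fewer cells of a type and less RNA per cell cannot be told apart.

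A few genes of the interferon side stood high in 1 library. IRF1, IFIT2, IFI44L and the class II gene HLA-DRB4 each had at least 1 transcript that was 2-fold or more above the mean of the other 3 libraries in active Star, and HLA-DRB4 was high in both libraries of Star. Of the 7 NF-kB genes, 5 were higher in hibernation in both bears as deposited, as were 2374 of all 4873 annotated genes, and 3 or 2 were once libraries were scaled to each other. No member passed the limma test after adjustment, and of all 9093 annotated transcripts 0 did, so that test singled out none of these differences between the states.

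IRF1, a transcription factor that interferons induce, measured 3.33 RPKM in hibernating Tia, 3.18 in active Tia, 3.25 in hibernating Star and 13.7 in active Star. The first 3 of these libraries were level with each other and active Star stood 4.22-fold above their mean, while active Tia lay below both hibernating libraries. The mean log2 change, hibernating minus active on the log2(RPKM + 0.5) scale, was -0.93 ± 0.61 (SE, n = 2 libraries per state), with an adjusted p of 0.658 by limma over all annotated transcripts. Its 3 transcripts gave changes of 0.06 to 0.16 in Tia and of -1.92 to -1.70 in Star. These transcripts share sequence, so they are 3 readings of 1 gene and not 3 independent genes.

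IRF9, the DNA-binding partner of STAT proteins in the type I interferon response, measured 3.12 RPKM in hibernating Tia, 1.99 in active Tia, 3.78 in hibernating Star and 5.47 in active Star. Here the bears went opposite ways, with a change of 0.54 in Tia and of -0.48 in Star, and active Star was again the highest library. The mean was 0.03 as deposited and turned to -0.12 or -0.15 when libraries were scaled to each other.

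IRF2, which competes with IRF1 for the same DNA elements, measured 2.86 RPKM in hibernating Tia, 3.56 in active Tia, 3.21 in hibernating Star and 3.77 in active Star. Both active libraries were above both hibernating ones, by a small margin. STAT6, the transcription factor of IL4 and IL13 signalling, ranged from 3.81 to 5.80 RPKM, and its highest library was hibernating Star. JAK1, the kinase shared by interferon and IL6 family receptors, measured 8.41 RPKM in hibernating Tia, 7.66 in active Tia, 9.57 in hibernating Star and 8.02 in active Star, a change of 0.13 in Tia and 0.24 in Star against medians of 0.13 and 0.17 over all annotated genes.

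Among the interferon-induced effectors, IFIT2, which binds foreign RNA and blocks its translation, measured 1.54 RPKM in hibernating Tia, 1.46 in active Tia, 1.16 in hibernating Star and 4.49 in active Star. Active Star stood clear of the others, and the 2 states overlapped because active Tia was below hibernating Tia. Its change was 0.06 in Tia and -1.59 in Star, and the mean of -0.76 ± 0.45 (SE) had an adjusted p of 0.630 by limma. With 3 libraries close to the 1 RPKM minimum of the table, the fold change of IFIT2 is understated by the pseudocount of 0.5.

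IFI44L, an interferon-induced protein of antiviral responses, was assembled as 4 long transcripts. The one with the most reads measured 1.02 RPKM in hibernating Tia, 1.55 in active Tia, 1.41 in hibernating Star and 2.73 in active Star. Both active libraries lay above both hibernating ones, with active Star 2.05-fold above the mean of the other 3. The mean change was -0.59 ± 0.28 (SE), with an adjusted p of 0.584 by limma.

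Its paralogue IFI44 gave 2.57 RPKM in hibernating Tia, 3.07 in active Tia, 3.02 in hibernating Star and 3.80 in active Star. Again both active libraries were higher, but the margin between 3.02 and 3.07 RPKM was narrow. OAS2, a synthetase of the oligoadenylates that activate RNase L, ranged from 2.26 to 2.74 RPKM with both hibernating libraries higher as deposited. That order held under neither scaling, with a change in Star of -0.056 (median ratio) and -0.057 (upper quartile). The mean change of OAS2 was also below 0 under upper-quartile scaling (-0.01). OASL, a relative of the OAS enzymes, ranged from 2.35 to 2.88 RPKM and was highest in active Star.

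**Figure D1:**
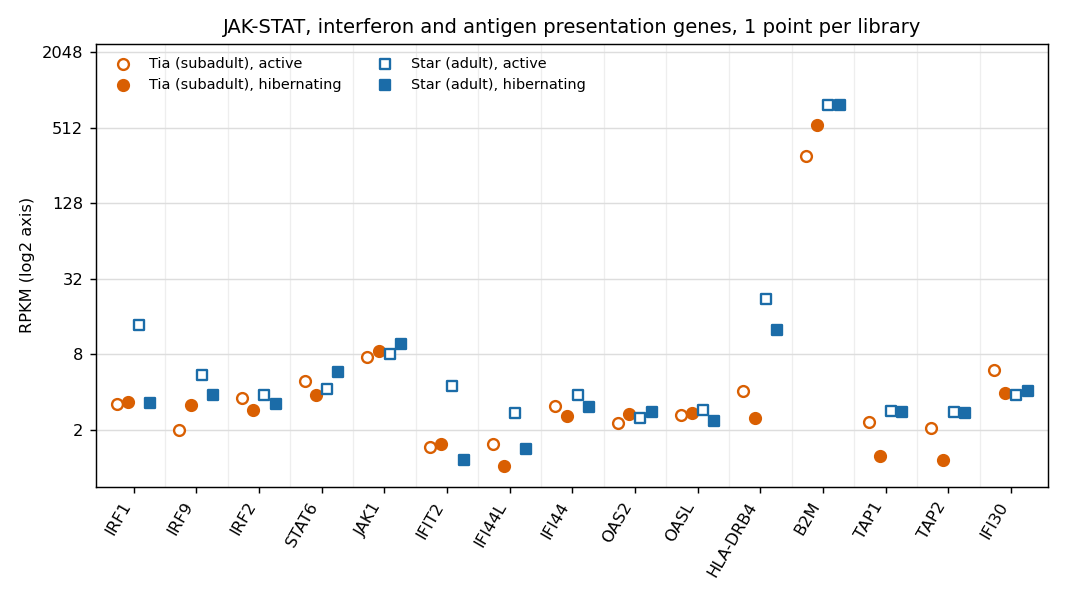
RPKM (log2 axis) of 15 genes of the JAK-STAT, interferon-induced and antigen presentation groups, with 1 point per library, open for active and filled for hibernating, circles for Tia and squares for Star. The open squares of IRF1 (13.7 RPKM) and IFIT2 (4.49 RPKM) stand apart from the other 3 points of each gene, whereas JAK1 and OAS2 show 4 points close together.

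Of the antigen presentation genes, HLA-DRB4, named by similarity to a human class II beta chain that shows peptides to CD4+ T cells, measured 2.46 RPKM in hibernating Tia, 4.05 in active Tia, 12.5 in hibernating Star and 22.1 in active Star. Both libraries of Star were above both of Tia, and within each bear the active library was the higher one. The mean change was -0.71 ± 0.94 (SE), with an adjusted p of 0.792 by limma, and all 4 transcripts had the same sign in both bears. That SE includes the difference in level between the bears. With the bear as a block in the fit, the adjusted p by limma was 0.340. Class II beta chains form a multigene family, so the human name and the sharing of reads between near-identical copies are uncertain.

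B2M, the light chain of class I molecules, was the most abundant member, at 538.7 RPKM in hibernating Tia, 306.0 in active Tia, 776.3 in hibernating Star and 771.3 in active Star. Its level was alike in both libraries of Star and 1.76-fold higher in hibernation in Tia. Its adjusted p by limma was 0.774.

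TAP1 and TAP2, the chains of the transporter that brings peptides to class I molecules, resembled each other and not B2M. TAP1 measured 1.24 RPKM in hibernating Tia, 2.31 in active Tia, 2.77 in hibernating Star and 2.84 in active Star. TAP2 measured 1.14, 2.07, 2.72 and 2.77 RPKM in the same order of libraries. For both genes hibernating Tia was the low library and the 2 libraries of Star were level, which is another pattern than that of IRF1 and IFIT2. IFI30, a lysosomal thiol reductase of class II presentation, ranged from 3.78 to 5.96 RPKM with active Tia the highest.

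Counted over the 74 member transcripts, 12 (16.2%) were at least 2-fold above the mean of the other 3 libraries in active Star, against 0.781% of all annotated transcripts. At the level of genes, with the transcript of most reads for each, 4 of 47 (8.51%) met this mark against 30 of 4873 (0.616%). The same count was 0 members in hibernating Tia (background 2.45%), 1 in active Tia (background 2.17%) and 0 in hibernating Star (background 0.902%), and the 1 in active Tia was CD209. Active Star was the highest of the 4 libraries for 31 member transcripts (41.9%, background 13.4%) and for 16 of the 47 genes (34%, background 12.3% of genes). These counts were chosen after the levels had been seen and are descriptions of a single library.

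The ratio of active Star to the mean of the other 3 was 4.22 for IRF1, 3.48 for HLA-DRB4, 3.24 for IFIT2 and 2.05 for IFI44L. The 2 leukocyte markers listed of 16, C1QA and LCP1, summed to 18.0 RPKM in hibernating Tia, 30.2 in active Tia, 38.0 in hibernating Star and 36.8 in active Star. The 5 endothelial markers of 10 summed to 34.9, 31.8, 28.7 and 19.3 RPKM in the same order. The 4 connective tissue markers of 8 summed to 276.5, 336.6, 229.8 and 160.1 RPKM, and both sums were lowest in active Star. Single markers differed. COL1A1 measured 11.0 RPKM in hibernating Tia, 193.1 in active Tia, 9.15 in hibernating Star and 6.79 in active Star. It gave the largest share of the connective tissue sum in active Tia, whereas COL1A2 (2.59) and COL3A1 (116) were lowest there. FBN1 was highest in active Tia (24.9 RPKM) and lowest in hibernating Star (7.27 RPKM). The endothelial marker ERG was lowest in active Tia (2.56 RPKM). The 1 fat cell marker listed of 6, LPL, measured 63.4 RPKM in hibernating Tia, 120.3 in active Tia, 19.8 in hibernating Star and 18.8 in active Star. None of 4 blood markers was listed, and the part of cell makeup in these levels was not tested.

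**Figure D2:**
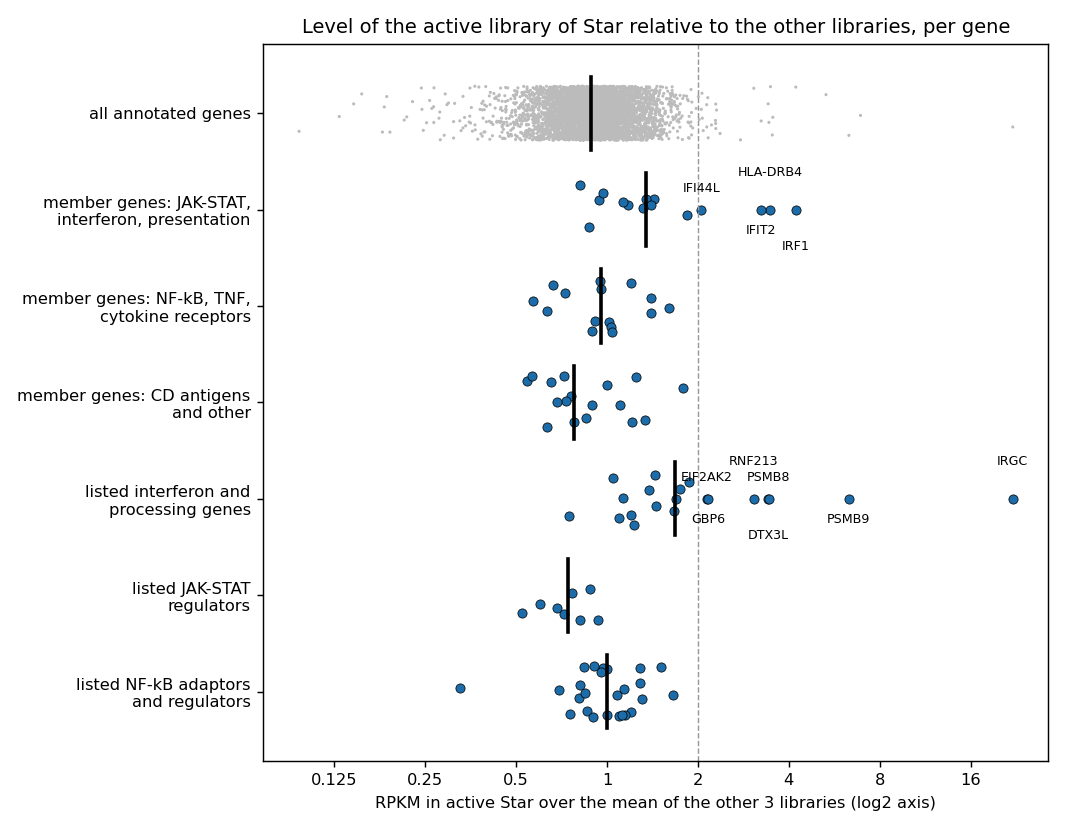
RPKM in active Star divided by the mean of the other 3 libraries (log2 axis) for each gene, 1 point per gene, in all annotated genes, 3 groups of member genes and 3 lists of other pathway genes, with a black bar at each median and a dashed line at 2-fold. The 4 named member genes and 7 named genes of the interferon and processing list lie beyond the line, which 30 (0.616%) of all annotated genes pass. No member of the NF-kB, TNF and receptor group does, which at that share is the usual count for so few genes.

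A list of 59 other genes of the interferon response and antigen processing had 20 genes in the table. Like the members, the list was chosen with earlier results of these data known, so its counts are no independent evidence. Their mean change was lower in hibernation for 15 and higher for 5, against 1652 and 3221 of all 4873 annotated genes. Active Star was the highest library for 16 of the 20 (background 12.3% of genes). There, 7 (DTX3L, EIF2AK2, GBP6, IRGC, PSMB8, PSMB9 and RNF213) were at least 2-fold above the mean of the other 3 libraries (background 0.616%). Under either scaling 18 were lower and 16 were highest in active Star, with backgrounds for the latter of 24.9% and 26%. The 2-fold count was then 8 (backgrounds 0.944% and 0.964%). The summed level of the 20 genes as deposited was 130.4 RPKM in hibernating Tia, 132.2 in active Tia, 172.5 in hibernating Star and 456.6 in active Star, of which IRGC gave the largest share in active Star. IRGC, named by similarity to a human member of the immunity-related GTPases, a family in which the bear gene may be another member, measured 4.37 RPKM in hibernating Tia, 12.2 in active Tia, 17.7 in hibernating Star and 252.2 in active Star. It was the only gene of the list at least 2-fold lower in hibernation in both bears, although active Tia lay below hibernating Star. The median change of the list was 0.01 in Tia and -0.57 in Star. PSMB9, an immunoproteasome subunit, measured 1.45 RPKM in hibernating Tia, 1.29 in active Tia, 4.28 in hibernating Star and 14.8 in active Star. PSMB8, also an immunoproteasome subunit, measured 3.00 RPKM in hibernating Tia, 3.08 in active Tia, 17.9 in hibernating Star and 27.4 in active Star, and like HLA-DRB4 was higher in both libraries of Star than in those of Tia. None passed the adjusted limma test, and 1, the apolipoprotein L gene APOL6 (-0.70 ± 0.25 SE, adjusted p = 0.549 by limma), had an unadjusted p below 0.05.

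In the TAP region of the brown bear annotation of RefSeq, PSMB8 and TAP1 are neighbours with 0 protein-coding genes between them. Their levels nonetheless differed in pattern, since PSMB8 was 1.54-fold higher in active than in hibernating Star, whereas TAP1 was level within Star and its low library was hibernating Tia. Of the 47 member symbols, 38 were found in that annotation.

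The NF-kB group held 7 genes, from the DNA-binding subunits to the kinase and its adaptors. The 5 that were higher in hibernation in both bears as deposited were IKBKB, IKBKG, RELA, TRAF3IP2 and TRAF7. With libraries scaled by the median ratio or the upper quartile, 3 and 2 of the 7 were higher in both bears, against 1479 and 1360 of all 4873 annotated genes. The group median of 0.26 log2 units (0.15 over all annotated genes) became 0.12 and 0.09. As deposited, none was highest in active Star (background 12.3% of genes), and 2 of the 7 (28.6%) were under either scaling (backgrounds 24.9% and 26%).

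RELA, the subunit of NF-kB that activates transcription, measured 29.0 RPKM in hibernating Tia, 14.0 in active Tia, 25.3 in hibernating Star and 21.7 in active Star. Both hibernating libraries were above both active ones, mostly through the low value of active Tia. Its change was 1.02 in Tia and 0.22 in Star, and the mean of 0.62 ± 0.27 (SE) had an adjusted p of 0.573 by limma. Scaled by the median ratio, the change in Star came to 0.01.

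NFKB1, whose product is cut to the DNA-binding partner of RELA, measured 4.21 RPKM in hibernating Tia, 5.02 in active Tia, 5.12 in hibernating Star and 4.91 in active Star. The states overlapped, and its changes of -0.23 in Tia and 0.05 in Star had opposite signs. NFKBIE, an inhibitor that keeps NF-kB in the cytoplasm, was lowest in hibernating Tia at 1.40 RPKM and ranged from 2.27 to 2.59 RPKM in the other libraries.

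IKBKB, the catalytic kinase that marks the inhibitors for destruction, measured 3.08 RPKM in hibernating Tia, 2.17 in active Tia, 3.05 in hibernating Star and 2.81 in active Star. IKBKG, its regulatory partner, measured 4.87 RPKM in hibernating Tia, 4.31 in active Tia, 4.82 in hibernating Star and 4.17 in active Star. For both, the hibernating libraries were level with each other and above the active ones as deposited, and for both the change in Star was below 0 after either scaling (-0.09 and -0.01). Adjusted p-values by limma were 0.713 and 0.779.

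TRAF7, a ubiquitin ligase of the TRAF family, measured 37.4 RPKM in hibernating Tia, 22.4 in active Tia, 21.3 in hibernating Star and 17.1 in active Star. Within each bear the hibernating library was higher, yet active Tia exceeded hibernating Star, so the states overlapped. TRAF3IP2, an adaptor between interleukin receptors and TRAF proteins, measured 1.53 RPKM in hibernating Tia, 1.36 in active Tia, 2.43 in hibernating Star and 1.00 in active Star. Its states did not overlap, but the reading in active Star, at the lower limit of the table, rests on 27 reads. IKBKAP shares its name with these kinases but codes for a scaffold of the Elongator complex, and it measured 4.53 RPKM in hibernating Tia, 2.96 in active Tia, 3.55 in hibernating Star and 2.87 in active Star. Its 3 transcripts did not share a sign, the only gene of the 16 with several transcripts for which this was so.

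**Figure D3:**
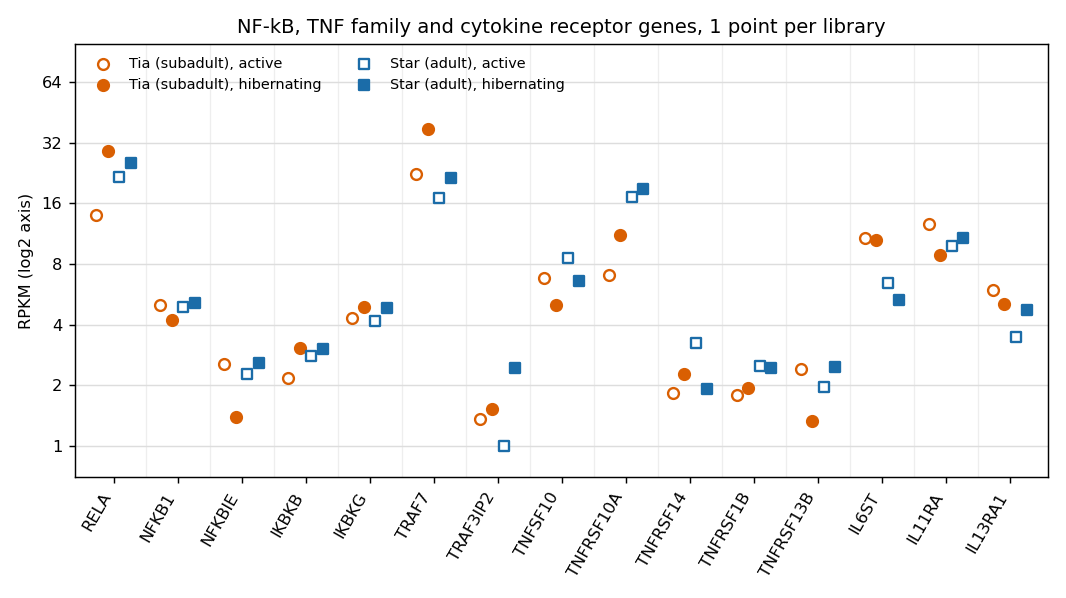
RPKM (log2 axis) of 15 genes of the NF-kB, TNF family and cytokine receptor groups, with 1 point per library, open for active and filled for hibernating, circles for Tia and squares for Star. RELA and TRAF7 show a filled circle above the open one (29.0 against 14.0 and 37.4 against 22.4 RPKM in Tia), and NFKB1 and IKBKG show all 4 points within a narrow band.

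Of 45 other genes of NF-kB signalling, 25 were in the table, 14 with a higher and 11 with a lower mean in hibernation and a median of 0.10. The split turned to 10 higher and 15 lower with median-ratio scaling and to 7 higher and 18 lower with upper-quartile scaling. Active Star was the highest library for 7 of the 25 as deposited (28%, background 12.3% of genes). With the same 2 scalings it was highest for 12 and 13 (48% and 52%, backgrounds 24.9% and 26%). SERPINF1, a secreted serpin that the study links to NF-kB and examined on these samples, which makes it no independent evidence, measured 6.56 RPKM in hibernating Tia, 30.0 in active Tia, 2.74 in hibernating Star and 4.26 in active Star. The active library was higher within each bear, but active Star lay below hibernating Tia. MAP3K14, the kinase of the non-canonical NF-kB route, measured 6.06 RPKM in hibernating Tia, 2.58 in active Tia, 5.76 in hibernating Star and 3.92 in active Star, with no overlap of the states and a mean change of 0.79 ± 0.26 (SE, unadjusted p = 0.0241, adjusted p = 0.546 by limma). ECSIT, an adaptor of Toll-like receptor signalling and of mitochondrial complex assembly, measured 8.84 RPKM in hibernating Tia, 15.0 in active Tia, 11.6 in hibernating Star and 13.4 in active Star, with both active libraries higher.

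The TNF family had 5 member genes. Active Star was the highest library for 3 of them as deposited and for 4 under either scaling. The backgrounds were 12.3%, 24.9% and 26% of genes. TNFSF10, the death ligand also called TRAIL and a known interferon target, measured 4.99 RPKM in hibernating Tia, 6.80 in active Tia, 6.57 in hibernating Star and 8.56 in active Star. Both active libraries were above both hibernating ones, and the mean change of -0.38 ± 0.25 (SE) had an adjusted p of 0.656 by limma. TNFRSF10A, a receptor for this ligand, measured 11.2 RPKM in hibernating Tia, 7.06 in active Tia, 18.8 in hibernating Star and 17.2 in active Star, so that Star was above Tia in both states. Hibernation was above activity in both bears as deposited, but the change in Star of 0.12 became -0.09 under either scaling. TNFRSF14, TNFRSF1B (a receptor for TNF itself) and TNFRSF13B (a receptor of B cells) lay between 1.33 and 3.24 RPKM in all libraries, with overlap of the states for each.

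Cytokine receptor chains numbered 3, and active Tia was the highest library for each (background 20.3% of genes), for IL6ST by a narrow margin. IL6ST, the signalling chain shared by IL6 family receptors, measured 10.5 RPKM in hibernating Tia, 10.8 in active Tia, 5.33 in hibernating Star and 6.47 in active Star. It was higher in Tia than in Star in both states and its change with hibernation was -0.04 in Tia and -0.26 in Star. IL11RA, which pairs with IL6ST, measured 8.86 RPKM in hibernating Tia, 12.6 in active Tia, 10.7 in hibernating Star and 9.82 in active Star. IL13RA1, a chain of the IL4 and IL13 receptors, ranged from 3.48 to 5.92 RPKM. The states overlapped for all 3.

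Among 27 listed ligands and regulators of JAK-STAT signalling, 8 were in the table. Of these, 6 were higher in hibernation in both bears as deposited, 3 with median-ratio scaling and 2 with upper-quartile scaling. Of all 4873 annotated genes, 2374, 1479 and 1360 were higher in both bears under the same settings. CNTF, a cytokine that signals through IL6ST, measured 5.44 RPKM in hibernating Tia, 2.65 in active Tia, 5.08 in hibernating Star and 3.00 in active Star, with no overlap of the states and a mean change of 0.79 ± 0.22 (SE, unadjusted p = 0.0119, adjusted p = 0.541 by limma). PIAS3, an inhibitor of STAT proteins, measured 4.46 RPKM in hibernating Tia, 2.09 in active Tia, 3.76 in hibernating Star and 2.06 in active Star, and its mean change was 0.83 ± 0.22 (SE, unadjusted p = 0.00920, adjusted p = 0.541 by limma). SOCS2, a feedback inhibitor of growth hormone and cytokine receptors, measured 3.91 RPKM in hibernating Tia, 13.4 in active Tia, 2.36 in hibernating Star and 3.45 in active Star. Active Tia stood apart for SOCS2, and active Star lay below hibernating Tia. The summed level of the 8 genes was lowest in active Star, at 78.5 RPKM against 89.2 to 104.8 in the other libraries. LIF (30.3 RPKM) and PTPN11 (29.0 RPKM) gave the largest shares of the sum in active Star. Single genes differed, and PTPN11 was lowest in active Tia (23.9 RPKM).

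The CD antigens, surface proteins numbered as markers of blood cells but often found on muscle and vessel cells too, made up 14 genes. CD209, a lectin of dendritic cells and macrophages, measured 1.38 RPKM in hibernating Tia, 10.4 in active Tia, 4.75 in hibernating Star and 7.39 in active Star. Both active libraries were above both hibernating ones, and hibernating Tia was the low library. The level in activity was 7.53-fold that in hibernation in Tia and 1.55-fold in Star. The mean change was -1.56 ± 0.50 (SE), with an unadjusted p of 0.0216 and an adjusted p of 0.542 by limma.

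CD68, a lysosomal glycoprotein of macrophages, went the other way. It measured 6.41 RPKM in hibernating Tia, 3.94 in active Tia, 7.12 in hibernating Star and 3.28 in active Star. Both hibernating libraries were clear of both active ones, and the mean change was 0.83 ± 0.23 (SE), with an unadjusted p of 0.0113 and an adjusted p of 0.541 by limma. These 2 macrophage-associated genes thus had opposite signs in both bears and under both scalings.

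The 3 tetraspanins among the members, which organise membrane proteins, gave no common direction. CD9 measured 11.5 RPKM in hibernating Tia, 15.3 in active Tia, 20.5 in hibernating Star and 11.3 in active Star, and CD81 measured 160.2, 114.0, 183.6 and 272.0 RPKM in that order, on a fragment of 221 bases. The bears moved in opposite ways for both genes, and CD151 ranged only from 18.8 to 25.5 RPKM. CD46, a guard against complement, was higher in hibernation in both bears, at 11.0 against 8.54 RPKM in Tia and 8.61 against 6.13 in Star. CD47, the signal that restrains phagocytes, and CD97, an adhesion receptor, were both highest in active Star, at 11.0 and 4.13 RPKM. CD44, the hyaluronan receptor, was nearly level at 6.08 to 6.56 RPKM, and CD99, CD164, CD200, CD276 and CD320 had overlapping states.

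Each gene of the list is placed by its change in Tia and in Star in the plot of both bears. Of the 47 member genes, 16 were higher in hibernation in both bears, 11 were lower in both and 20 went opposite ways, against 2374, 783 and 1711 of all 4873 genes. The median change of the members was 0.01 in Tia and 0.11 in Star, and over all genes it was 0.13 and 0.17. The split of the members by mean change was 24 higher and 23 lower as deposited, 16 and 31 with median-ratio scaling, and 13 and 34 with upper-quartile scaling, and that of all genes 3221 and 1652, 2423 and 2450, and 2201 and 2672. In each case the member median lay below that of all genes, by 0.12 log2 units as deposited and by 0.11 under either scaling.

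**Figure D4:**
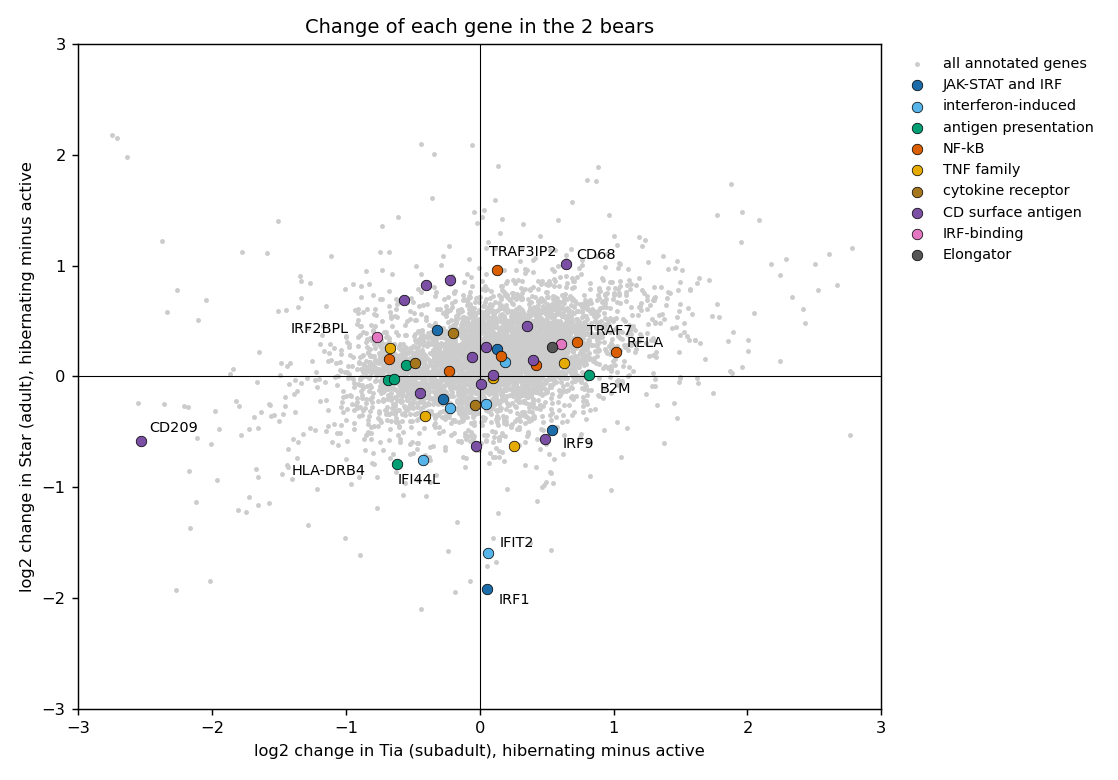
Change of each gene in log2(RPKM + 0.5), hibernating minus active, in Tia (horizontal) and in Star (vertical), with all annotated genes in grey (11 lie outside the axes) and member genes coloured by role. IRF1 and IFIT2 lie near 0 in Tia and between -1.92 and -1.59 in Star, CD209 lies at -2.54 in Tia, and RELA, TRAF7 and CD68 lie in the upper right.

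By the tests, 0 of the 74 member transcripts passed limma at an adjusted p below 0.05, as did 0% of all annotated transcripts, and the lowest adjusted p among members was 0.541. At an unadjusted p below 0.05 there were 2 (2.7%, background 9.08%), those of CD209 and CD68. A score after the description of NOISeq, which ranks a change by ratio and by RPKM against 53228 contrasts of Tia with Star in a common state, as the share of them it equals or exceeds, was 0.8 or more for 3 transcripts lower in hibernation (4.05%, background 1.51%) and for 0 higher (background 2.1%). They were 2 transcripts of IRF1 and that of CD209, so they stand for 2 genes, of which IRF1 had changes of 0.06 to 0.16 in Tia. Taken in Tia alone, 1 member transcript reached that score with a lower level in hibernation, and in Star alone 6 did. Those single-bear counts have no share of all transcripts beside them.

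No member was 2-fold lower in both bears (background 0.297%) or 2-fold higher in both (background 0.385%). Both hibernating libraries were above both active ones for 15 member transcripts (20.3%, background 34.6%), of the genes CD44, CD46, CD68, IKBKAP, IKBKB, IKBKG, IRF2BP1, JAK1, OAS2, RELA and TRAF3IP2. Both active libraries were above both hibernating ones for another 15 (20.3%, background 8.8%), of the genes CD209, CD47, CD97, IFI44, IFI44L, IRF2 and TNFSF10. Counted by gene, 11 had both hibernating and 7 both active libraries higher as deposited (backgrounds 35.8% and 8.11% of genes), which turned to 5 and 15 with median-ratio scaling (20.4% and 17.1%) and to 4 and 16 with upper-quartile scaling (18.4% and 19.6%). IRF2BP1, a corepressor that binds IRF2, and IRF2BPL, of similar name, differed from each other. Their changes were 0.61 and -0.77 in Tia and 0.29 and 0.36 in Star.

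Of the 47 genes, 31 had 1 transcript and 16 had several, and for 15 of the 16 all transcripts had the same sign of the mean change. The plot of these 16 genes by transcript shows how far the readings of 1 gene scatter. Member transcripts were 221 to 8531 bases long with a median of 2058 bases, against 1881 for all annotated transcripts.

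**Figure D5:**
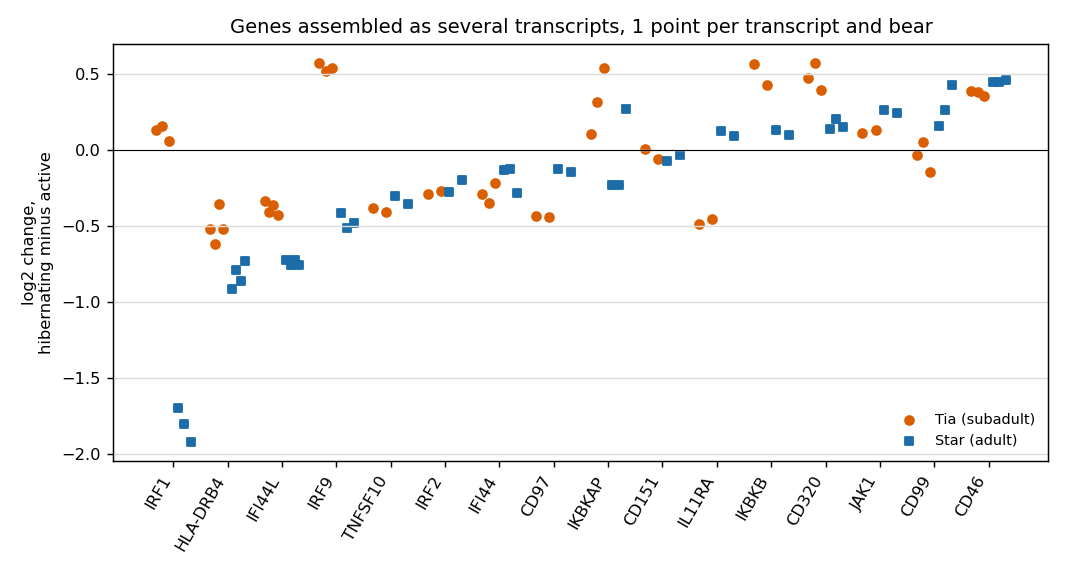
Change in log2(RPKM + 0.5), hibernating minus active, for each transcript of the 16 genes assembled as several transcripts, with circles for Tia and squares for Star, genes ordered by their mean change in Star. The transcripts of IRF1 cluster between -1.92 and -1.70 in Star and between 0.06 and 0.16 in Tia, a gap between the bears that exceeds the scatter between transcripts of the same gene.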

How the data were processed

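The authors assembled the transcripts de novo, named them by BLAST against human proteins, aligned the single-end reads with SOAP2 and deposited RPKM with the length of each transcript. The assignment of reads matching more than 1 transcript is not given in the sources used here. The deposited length, in bases, belongs to the transcript. The age class of Tia and Star was taken from the study's transcript list. The states were compared on log2(RPKM + 0.5), 2 libraries against 2, by limma 3.58.1 under R 4.3.3 (trended prior, Benjamini-Hochberg over 9093 annotated transcripts), a scale on which the changes of low genes are understated. Residual spread is that between the bears, and p-values rest on 2 animals. Each bear gave a library in both states, so the animal pairs them: the difference between the bears correlated at r = 0.356 between the states over annotated transcripts. A fit with the bear as a replicate block was an alternative, as were other pseudocounts, scalings, minimum levels, thresholds and single bears. The scaling factors alone, before the pseudocount, shifted log2 changes by -0.11 (Tia) and -0.22 (Star) with the median ratio. With the upper quartile the shifts were -0.19 and -0.22. Gene-level values used the transcript of highest read number (length times mean RPKM). The scripts were tested on simulated data. An item that matches the choice of members is not reported here and is left out of the member counts. Libraries of pooled or paired-end reads were not analysed here. Every member gene could be named; full values were given for genes with a score of 0.8, a 2-fold change in both bears or an unadjusted p below 0.05, and for IRF1, IRF9, JAK1, B2M, TAP1, TAP2, HLA, NFKB1, RELA and IKBK genes, and others were added after their values were seen. The members and lists were chosen with earlier results of these data known. Python 3.11.15 was used with pandas 2.3.3 and numpy 2.4.6, and plots drawn with matplotlib 3.10.9.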

Additional observations from a re-analysis of the deposited data

How the results depend on the processing

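With 1 library per bear and state, a single biopsy decides the results of IRF1 and IFIT2: without Star, the change of IRF1 was 0.0569 (-1.92 without Tia) and that of IFIT2 0.0635, whereas IFI44L and HLA-DRB4 kept their sign (-0.428 and -0.620). The count of members past limma at an adjusted p below 0.05 was 0 under every alternative, the bear as a replicate block included. At an unadjusted p below 0.05 by limma there were 10 with the block, 2 without it and 5 under either scaling. The share of all annotated transcripts was 9.08% without the block. It is not given for the other settings, so these counts are no result about the members. Members with a score of 0.8 or more and lower in hibernation numbered 3, against 7 with median-ratio and 7 with upper-quartile scaling, 0 with a minimum mean of 5 RPKM, 0 at a score of 0.9, and 1 (without Star) to 6 (without Tia) in single bears; those higher numbered 2 in either bear alone. At 1.5-fold in both bears 2 were lower and 1 higher, and in single bears 1 to 4 were 2-fold lower and 1 higher in each. For the score and fold counts, the share of all annotated transcripts is given above for the main setting alone. The member median was 0.028, against -0.118 with median-ratio and -0.150 with upper-quartile scaling, and 0.0063 to 0.107 in single bears. Mean changes turned negative with median-ratio scaling for CD164 (-0.11), CD200 (-0.085), CD44 (-0.10), CD99 (-0.0069), IL13RA1 (-0.053), IRF9 (-0.12), STAT6 (-0.10) and TNFRSF1B (-0.10), and with upper-quartile scaling for CD164 (-0.14), CD200 (-0.12), CD44 (-0.13), CD99 (-0.044), IKBKG (-0.012), IL13RA1 (-0.087), IRF9 (-0.15), JAK1 (-0.0079), OAS2 (-0.013), STAT6 (-0.14) and TNFRSF1B (-0.13). These moves follow from the construction of the scalings. The counts for active Star were alternatives chosen after seeing the data. With the same 2 scalings they went from 12 to 15 and 16 for 2-fold above the others (background 1.06% and 1.11%). They went from 31 to 39 and 40 for the highest library (background 27.2% and 28.5%).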
